A study of Homo sapiens with 6 samples.

Results

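Ribosome biogenesis factors are the proteins that transcribe, cut, modify and fold ribosomal RNA and assemble it with ribosomal proteins. A list of 52 such genes was examined in BE(2)-C cells, an established human neuroblastoma line that is a clonal derivative of SK-N-BE(2). Members were taken by gene symbol from the array annotation, with the row of highest mean over all arrays where a gene had several. Of the 52 genes, 36 had a row named with their symbol and 16 did not, among 14779 genes with a named row in all. The genes without a named row were DKC1, GNL3, PES1, NOP56, RRP8, RRP9, PPAN, PA2G4, UTP3, UTP6, UTP15, UTP20, TSR1, BRIX1, EBNA1BP2 and MDN1, and their levels were not analysed here. The control group was BE(2)-C cells given the vehicle DMSO for 2 days (n = 3), and the treated group was the same line given 10 µM NCT-503 for 2 days (n = 3). NCT-503 inhibits phosphoglycerate dehydrogenase (PHGDH), the enzyme at the start of serine synthesis. Both groups grew in the same serum-supplemented medium, each sample was hybridised to its own Affymetrix whole-transcript array, and all 6 samples come from 1 cell line. The comparison asked how transcripts of the ribosome assembly pathway differ after 2 days with the inhibitor.

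In the nucleolus, RNA polymerase I makes a long precursor that is cleaved into the mature ribosomal RNAs. Small nucleolar ribonucleoproteins (snoRNPs) modify it, the small subunit processome folds and cuts the part that becomes the small subunit, and a separate series of assembly factors builds the large subunit. The last small subunit steps take place in the cytoplasm, where scaffold proteins leave and the final cut is made. Genes of this pathway are well-known targets of MYC family factors, and BE(2)-C carries an amplified MYCN gene.

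On the deposited log2 scale, array medians were alike and ran from 4.30 to 4.33. The 75th percentiles differed by group, from 6.16 to 6.19 with DMSO and from 6.03 to 6.08 with NCT-503, without overlap. Arrays of one group correlated at 0.990 to 0.993 (Pearson, over all rows) and arrays of different groups at 0.971 to 0.972. Of 9 neuroblastoma markers 7 were measured (PHOX2A, HAND2, GATA3, ISL1, TH, DBH and CHGA), and the log2 of their summed linear values was 12.00 to 12.08 with DMSO and 11.88 to 12.00 with NCT-503. Singly, CHGA fell by 1.23, HAND2 by 0.30 and ISL1 by 0.29, PHOX2A rose by 0.75 and GATA3 and DBH by 0.37 each, and TH did not pass (-0.16). Of 9 markers of other cell types 4 were measured (CD68, DCN, EPCAM and ALB), and their sum was 7.11 to 7.21 with DMSO and 8.63 to 8.81 with NCT-503. CD68, a macrophage marker that also encodes a lysosomal membrane protein, rose from 6.22 ± 0.12 to 8.47 ± 0.10 (SD, n = 3), whereas EPCAM and ALB had changes of 0.25 and 0.08 and did not pass and DCN fell by 0.47. The part of these markers in the results was not tested. PHGDH, the target of the compound, rose from 7.68 ± 0.07 to 8.65 ± 0.12. This is no check of the labels, since the compound acts on the enzyme.

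With NCT-503, 10 of 15 measured large subunit members and 4 of 9 small subunit processome members fell, against 17.1% of all genes tested. Of 7 measured late small subunit members 1 fell and 2 rose, against 17.1% and 16.4% of all genes tested. Among 29 large subunit factors outside the list, 5 fell and 12 rose. URB2, a nucleolar protein of large subunit assembly, and LTV1, a scaffold of the young small subunit, had the largest falls, to 2.80-fold and 2.40-fold lower levels. NOB1, the nuclease that makes the final cut of small subunit RNA, had the largest rise, 2.10-fold. These are bulk samples, in which fewer expressing cells and less RNA per cell cannot be told apart. In all, 18 of the 36 measured members fell and 3 rose (limma with Benjamini-Hochberg adjustment over all genes tested, adjusted p under 0.05), and 15 did not pass. Over all genes tested the same rule called 17.1% lower and 16.4% higher and 33.5% in either direction, against 18, 3 and 21 of the 36 members. The median change, as a log2 difference of NCT-503 minus DMSO, was -0.27 over the members and 0.06 over all genes tested. Changes were below 0 for 29 members (80.6%) and for 41.8% of all genes tested. All 3 NCT-503 arrays lay below all 3 DMSO arrays in 23 members and above them in 4, against 22.4% and 25.4% of all genes tested.

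The members had high values, and genes with high values were called more often. All 36 lay at or above the 60.8th percentile of mean value. Among the 7390 genes at or above the 50th percentile, 27.2% were called lower and 23.0% higher. Among the 3695 genes at or above the 75th percentile, which held 28 members, 27.7% were lower and 28.7% higher, compared with 16 members lower and 2 higher. After centring arrays at the 75th percentile, the members split into 17 lower and 5 higher, and all genes tested into 2024 lower and 4073 higher instead of 2534 and 2419. The median change was then -0.16 over the members and 0.17 over all genes tested.

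**Figure D1:**
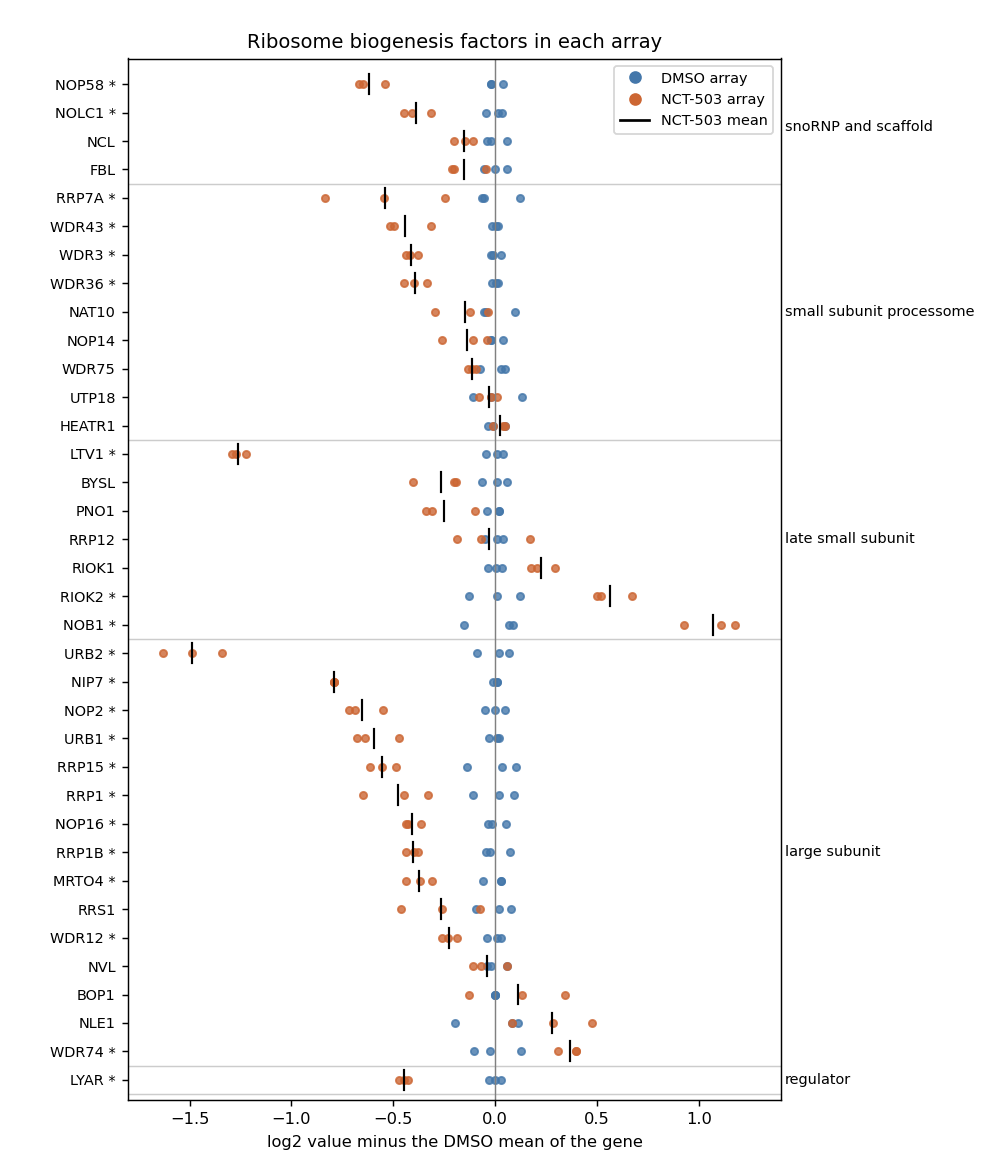
Each row is 1 measured member, grouped by role, and each point is 1 array, plotted as the log2 value minus the DMSO mean of that gene. Blue points are DMSO arrays, orange points are NCT-503 arrays, the black bar is the NCT-503 mean (n = 3), and a star marks an adjusted p under 0.05; URB2 and LTV1 lie farthest left and NOB1 farthest right.

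Several of these genes carry the same short sequence at their start. The canonical E-box, CACGTG, is the hexamer that MYC-MAX dimers recognise. It reads the same on both strands and was searched in RefSeq promoter windows of 300 bases (250 before the gene start and 50 after, GRCh38.p14). Windows were found for 29 of the 36 measured members, and 12 of these (41.4%) held the hexamer. It was present in 11.1% of the 10715 genes tested that had a window, and in 7.26% of all 35116 windows. In 10 of the 12 members a copy began within the gene, between base 4 and base 36 counted from 1 at the gene start. Over all genes tested with a window, 1.27% had a copy after the start, against 34.5% of the measured members. The sites are shown because these 12 promoters share them, most with a copy after the start. The window ends 50 bases after the start, which bounds how far apart such copies can lie. Each run of 30 bases is printed 5′ to 3′ along the gene, with the hexamer in capitals.
LTV1: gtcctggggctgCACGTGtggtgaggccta (chr6:143843354-143843383, plus strand).
NOP2: gctaggtccggattgCACGTGgagggccgc (chr12:6568242-6568271, minus strand).
WDR43: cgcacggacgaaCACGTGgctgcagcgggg (chr2:28894658-28894687, plus strand).
MRTO4: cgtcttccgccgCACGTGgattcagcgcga (chr1:19251807-19251836, plus strand).
LYAR: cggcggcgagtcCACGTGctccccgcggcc (chr4:4290068-4290097, minus strand).
FBL: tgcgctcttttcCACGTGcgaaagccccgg (chr19:39846356-39846385, minus strand).
BYSL: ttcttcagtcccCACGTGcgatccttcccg (chr6:41921515-41921544, plus strand).
PNO1: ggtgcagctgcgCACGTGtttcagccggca (chr2:68157885-68157914, plus strand).
NOP14: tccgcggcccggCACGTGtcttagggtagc (chr4:2963374-2963403, minus strand).
NLE1: ctctttctcctcCACGTGgggacgcaggat (chr17:35142274-35142303, minus strand).
UTP18: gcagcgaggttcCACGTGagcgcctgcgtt (chr17:51260538-51260567, plus strand).
NAT10: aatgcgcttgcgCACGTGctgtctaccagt (chr11:34105602-34105631, plus strand).
In LYAR the hexamer began 64 bases before the start and in NAT10 15 bases before it. UTP18 had another copy 89 bases before the start.

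The hexamer was found among members that fell and among members that did not pass. It was present in 5 of the 14 members with a window that fell (LTV1, NOP2, WDR43, MRTO4 and LYAR). It was also in 7 of the 12 that did not pass, and in none of the 3 that rose. Over all genes tested with a window, it was in 12.4% of those lower, 10.8% of those not called and 10.6% of those higher. With 3 members that rose, its absence there says nothing about direction. A match is a description of letters in the window, and binding was not measured here.

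**Figure D2:**
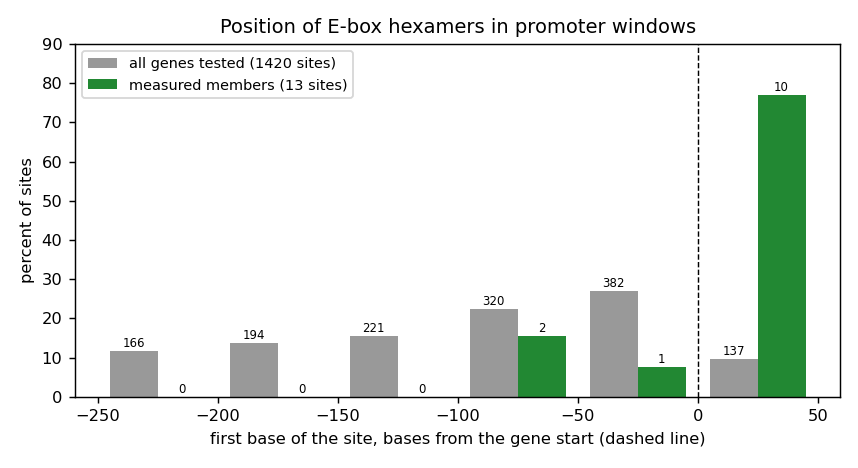
Bars give the percent of E-box hexamers whose first base falls in each 50-base stretch of the promoter windows, for all genes tested (grey, 1420 sites) and for the measured members (green, 13 sites), with the number of sites above each bar. The dashed line is the gene start; 10 of the 13 member sites lie after it, against 137 of 1420.

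Large subunit factors build the particle that carries the peptidyl transferase centre. Of 15 measured members, 10 fell and WDR74 rose, with a median change of -0.40. Over all genes tested 17.1% were called lower and 16.4% higher, with a median change of 0.06. URB2 had values of 7.48, 7.59 and 7.64 in DMSO a, b and c and of 6.23, 6.08 and 5.94 in NCT-503 a, b and c. Every treated array was below every control array, by more than the spread within either group, and the change was -1.49 ± 0.10 (SE, adjusted p = 8.50e-05). Its partner in the same early assembly step, URB1, had 7.01, 7.00 and 6.96 with DMSO and 6.52, 6.35 and 6.31 with NCT-503. URB1 fell by 0.60 ± 0.08 (adjusted p = 0.00162), again with no overlap between groups.

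NIP7 is a small RNA-binding protein needed for precursor processing. It had 9.07, 9.09 and 9.09 with DMSO and 8.29 in each of the 3 NCT-503 arrays. Its spread within groups was the narrowest of the factors that fell most, and the change was -0.80 ± 0.07 (adjusted p = 0.000207). NOP2, a methyltransferase of large subunit RNA and a classical proliferation antigen, had 7.88, 7.83 and 7.78 with DMSO and 7.11, 7.28 and 7.14 with NCT-503. It fell by 0.65 ± 0.08 (adjusted p = 0.000939). RRP15, a nucleolar assembly factor, had 7.84, 8.08 and 8.01 with DMSO and 7.42, 7.36 and 7.49 with NCT-503, a fall that passed at an adjusted p of 0.00327 (-0.55 ± 0.09).

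The paralogs RRP1 and RRP1B are nucleolar proteins of large subunit processing whose genes lie on chromosome 21 with 2 protein-coding genes between them. RRP1 fell by 0.48 ± 0.11 (adjusted p = 0.0119) and RRP1B by 0.40 ± 0.07 (adjusted p = 0.00512). RRP1 ranged from 7.24 to 7.44 with DMSO and from 6.70 to 7.02 with NCT-503, and RRP1B from 8.44 to 8.56 and from 8.05 to 8.11. Neither gene had overlapping groups. NOP16 (-0.41) and MRTO4 (-0.37), an assembly factor related to the ribosomal stalk protein RPLP0, also fell.

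BOP1, PES1 and WDR12 form the PeBoW complex, which is needed for maturation of large subunit RNA. WDR12 had 8.40, 8.33 and 8.38 with DMSO and 8.11, 8.14 and 8.18 with NCT-503. Its fall of 0.23 ± 0.07 passed at an adjusted p of 0.0432. Omitting any array in turn ended the call, with adjusted p-values between 0.0574 (NCT-503 c omitted) and 0.121 (DMSO a omitted), and centring at the 75th percentile also ended it (-0.12, adjusted p = 0.231). BOP1 had 5.95 in each DMSO array and 6.08, 6.29 and 5.82 with NCT-503, which lie on both sides of the controls (0.11 ± 0.12, adjusted p = 0.522). A second row of BOP1 gave a change of 0.10. PES1 had no named row.

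WDR74, which works with the AAA ATPase NVL to release a processing cofactor from early large subunit particles, was the 1 measured large subunit member that rose. It had 5.50, 5.42 and 5.65 with DMSO and 5.92, 5.92 and 5.83 with NCT-503 (0.37 ± 0.09, adjusted p = 0.0159). The call was lost without DMSO a (adjusted p = 0.0544), DMSO b (0.0526) or NCT-503 b (0.0514). NVL itself had a change of -0.04 ± 0.08 with overlapping groups. NLE1, a substrate of the remodelling ATPase MDN1, had 0.28 ± 0.13 (adjusted p = 0.146), and RRS1, which brings the 5S ribonucleoprotein into the particle, had -0.27 ± 0.11 (adjusted p = 0.114). Groups overlapped in both.

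The small subunit processome is a large nucleolar complex on the young transcript. Of its 9 measured members 4 fell, none rose and 5 did not pass, with a median change of -0.15. Over all genes tested 17.1% were called lower and 16.4% higher. RRP7A had the largest change, from 7.22, 7.40 and 7.21 with DMSO to 7.03, 6.73 and 6.44 with NCT-503. The NCT-503 arrays were spread widely (SD 0.29), and the call (-0.54 ± 0.15, adjusted p = 0.0287) was lost without DMSO a, b or c or NCT-503 b or c (adjusted p from 0.0572 to 0.0845).

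Members of one subcomplex of the processome had unlike values. HEATR1, WDR43 and WDR75 belong to UTP-A, the subcomplex that binds the transcript earliest. WDR43 had 8.80, 8.81 and 8.78 with DMSO and 8.30, 8.28 and 8.48 with NCT-503 and fell by 0.44 ± 0.08 (adjusted p = 0.00576). HEATR1 had 8.74, 8.76 and 8.82 with DMSO and 8.81, 8.82 and 8.76 with NCT-503, so its groups covered the same range (0.02 ± 0.07, adjusted p = 0.862). WDR75 lay between these, at -0.11 ± 0.07 (adjusted p = 0.269). In UTP-B, the next subcomplex, WDR3 fell by 0.41 ± 0.07 (adjusted p = 0.00364) and WDR36 by 0.39 ± 0.07 (adjusted p = 0.00533), while UTP18 had -0.03 ± 0.09 (adjusted p = 0.806). The differences between subunits were not tested.

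NOP14, which bridges parts of the processome, had -0.14 ± 0.08 (adjusted p = 0.243), and the acetyltransferase NAT10, which modifies small subunit RNA, had -0.15 ± 0.09 (adjusted p = 0.270). The NOP14 groups did not overlap and those of NAT10 did.

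Late small subunit factors act while the particle leaves the nucleus and matures in the cytoplasm. Of 7 measured, LTV1 fell, NOB1 and RIOK2 rose and 4 did not pass, against 17.1% lower and 16.4% higher over all genes tested. With trend and robust moderation, or with genes of low values left out, 3 fell and 3 rose, since BYSL, PNO1 and RIOK1 then passed (adjusted p from 0.00693 to 0.0436). LTV1, a scaffold that must be phosphorylated and released for maturation to go on, had 8.77, 8.72 and 8.80 with DMSO and 7.47, 7.49 and 7.54 with NCT-503. The spread within each group (SD 0.04) was small beside the change of -1.26 ± 0.07 (adjusted p = 4.87e-05).

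NOB1 had 9.24, 9.46 and 9.48 with DMSO and 10.57, 10.50 and 10.32 with NCT-503. All treated arrays were above all controls, and the change was 1.07 ± 0.10 (adjusted p = 0.000348). PNO1, the protein that binds next to NOB1 and holds back its cut, had 6.78, 6.72 and 6.78 with DMSO and 6.66, 6.45 and 6.42 with NCT-503. Its groups did not overlap, but it did not pass (-0.25 ± 0.09, adjusted p = 0.0689).

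The atypical kinases RIOK1 and RIOK2 drive the release of assembly factors from the small subunit. RIOK2 had 7.19, 7.44 and 7.33 with DMSO and 7.84, 7.82 and 7.99 with NCT-503 and rose 1.48-fold (0.57 ± 0.09, adjusted p = 0.00349). RIOK1 had 8.09, 8.02 and 8.06 with DMSO and 8.26, 8.23 and 8.35 with NCT-503, also without overlap, and did not pass (0.22 ± 0.07, adjusted p = 0.0542). BYSL, which acts before export, had -0.26 ± 0.09 without overlap (adjusted p = 0.0545). RRP12, an export factor, had -0.03 ± 0.11 with overlapping groups (adjusted p = 0.833).

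**Figure D3:**
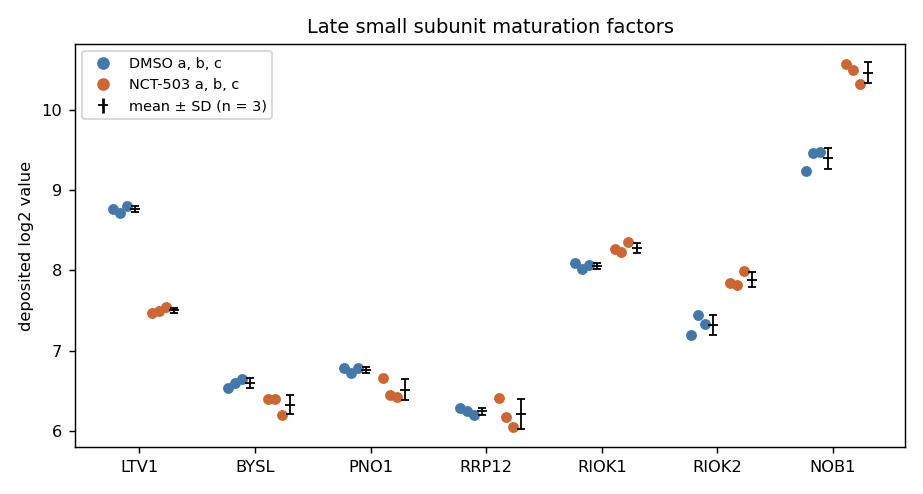
Deposited log2 values of the 7 measured late small subunit factors, with DMSO arrays in blue and NCT-503 arrays in orange and the mean ± SD (n = 3) beside each group. LTV1, BYSL and PNO1 are lower in all NCT-503 arrays and NOB1, RIOK2 and RIOK1 are higher, while the RRP12 groups overlap. Of these, LTV1, NOB1 and RIOK2 passed. Levels of different genes are not comparable on arrays.

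The snoRNP and nucleolar scaffold proteins had 2 falls among 4 measured members and no rise, against 17.1% lower and 16.4% higher over all genes tested. NOP58, a core protein of the box C/D particles that guide methylation of ribosomal RNA, had 10.94, 11.00 and 10.94 with DMSO and 10.29, 10.31 and 10.42 with NCT-503 (-0.62 ± 0.08, adjusted p = 0.000884). FBL (fibrillarin), the methyltransferase of the same particles, had 9.88, 9.94 and 9.83 with DMSO and 9.84, 9.68 and 9.67 with NCT-503, with overlapping groups (-0.15 ± 0.08, adjusted p = 0.194). NOLC1, a chaperone that brings snoRNPs to the nucleolus, fell by 0.39 ± 0.08 (adjusted p = 0.00670). NCL (nucleolin), an abundant nucleolar RNA-binding protein, ranged from 9.23 to 9.33 with DMSO and from 9.07 to 9.16 with NCT-503 and did not pass (-0.15 ± 0.07, adjusted p = 0.152). NCL and FBL were called lower when the variance was moderated with a trend and robust settings (adjusted p = 0.0244 and 0.0369). Of the nucleolar regulators, LYAR, a zinc finger protein of precursor processing, was measured, and it fell by 0.45 ± 0.07 (adjusted p = 0.00243) without overlap.

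Across the rest of the pathway, falls and rises were closer in number. Over all genes tested, 17.1% were called lower and 16.4% higher. Among genes at or above the 50th percentile of mean value, these shares were 27.2% and 23.0%. In 3 further lists, of other small subunit factors, other large subunit factors and other snoRNP and nucleolar proteins, 62 of 82 genes were measured. Of these, 13 fell (21.0%) and 18 rose (29.0%), with a median change of -0.03. Among other small subunit factors 4 of 18 fell (22.2%) and 3 rose (16.7%), near the shares over all genes. PWP2, a UTP-B subunit, fell by 0.84 ± 0.10, NOL6 by 0.66 ± 0.10 and NOL11, a UTP-A subunit, by 0.59 ± 0.08, whereas NOC4L (0.78 ± 0.11), AATF (0.37) and DCAF13 (0.35) rose. Among other large subunit factors 5 of 29 fell (17.2%) and 12 rose (41.4%). AFG2A, an ATPase that recycles shuttling factors, fell by 0.69 ± 0.07, the methyltransferase FTSJ3 by 0.59 ± 0.08 and GNL3L fell by 0.49 ± 0.08. RSL24D1, a placeholder for a ribosomal protein on the young large subunit, rose by 0.79 ± 0.08, NMD3, the large subunit export adaptor, by 0.65 ± 0.09 and NOP53 by 0.60 ± 0.08. Falls were 10 of 15 among the large subunit members and 5 of 29 among the other large subunit factors. This difference was not tested. The members and lists were chosen with earlier results of these data known, so the counts cannot separate the difference from that choice.

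Among other snoRNP and nucleolar proteins 4 of 15 fell and 3 rose. The assembly chaperones SHQ1 and NAF1 of the H/ACA particles fell by 0.60 ± 0.08 and 0.35 ± 0.10 and NOL12 by 0.45 ± 0.08, and RPP40 (0.64), SNU13 (0.34) and NPM3 (0.34) rose. The RNA exosome trims ribosomal RNA precursors. Of 13 measured exosome genes 4 fell (30.8%) and 3 rose (23.1%). Both lists were near the shares among genes at or above the 50th percentile of mean value (27.2% lower and 23.0% higher). Over all genes tested these shares were 17.1% and 16.4%. The largest falls were EXOSC3 at -0.78 ± 0.11, EXOSC2 at -0.77 ± 0.08 and EXOSC4 at -0.65 ± 0.16. The rises were EXOSC8 (0.44), C1D (0.39) and EXOSC10 (0.28).

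RNA polymerase I genes were mostly without a named row, with 3 of 15 measured. POLR1H, a small subunit of the enzyme, rose by 0.87 ± 0.11 (adjusted p = 0.00108), and POLR1F (-0.16) and the initiation factor RRN3 (0.16) did not pass. UBTF was not analysed here. In the MYC network 4 of 10 measured genes rose and 3 fell, against 16.4% and 17.1% of all genes tested. MAX, the obligate partner of MYC proteins, fell by 0.50 ± 0.09, MXD4 by 0.45 ± 0.12 and MGA by 0.40 ± 0.07. MXD1, a MAX partner that opposes MYC, had 5.97, 5.72 and 5.90 with DMSO and 7.04, 7.04 and 6.74 with NCT-503 and rose by 1.08 ± 0.12 (adjusted p = 0.000536). MXI1, of the same family, rose by 0.57 ± 0.09, whereas MXD4, also of this family, fell and MXD3 did not pass (0.01). MLX rose by 0.45 ± 0.09. MYC had low values, from 2.50 to 2.78 with DMSO and from 2.61 to 3.26 with NCT-503, which overlapped (adjusted p = 0.364). MYCN was not analysed here.

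**Figure D4:**
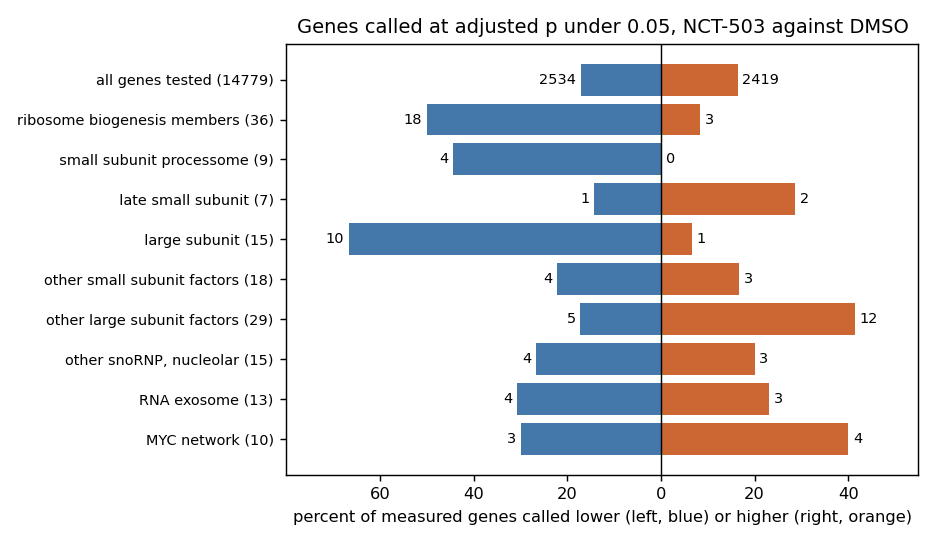
Percent of measured genes called lower (blue, left) or higher (orange, right) at an adjusted p under 0.05 in each list, with the number measured in brackets and the number called beside each bar. Members of the ribosome biogenesis list are called lower in 18 of 36 cases, and other large subunit factors are called higher in 12 of 29.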

How the data were processed

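The authors deposited 1 value per row and array, taken here as log2 from its range; per the submitters' processing notes the arrays were processed with Partek. How background was corrected and arrays were normalized is not stated in these notes. Of 31135 rows, 15098 had 1 gene symbol, none had several and 16037 had none, and all named rows matched the GRCh38.p14 gene table by Entrez identifier. Keeping the row of highest mean left 14779 genes. Genes without a named row may lie among the rows without a symbol.

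Each gene was compared between groups with limma 3.58.1 (lmFit, eBayes, no covariate, two-sided, under R 4.3.3), and p-values were adjusted by Benjamini-Hochberg over the 14779 genes. The steps were tested on simulated data. The labels call the samples independent without naming separate cultures, so the p-values reflect spread between samples that may be technical, and the number of arrays limits the precision. Deviations of same-letter samples correlated at 0.00, 0.00 and 0.04, so letters were not treated as pairs.

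The members and lists were chosen with earlier results of these data known, and no list was tested. Full values are given for the called members with the largest change, up to 8 in each direction, and for partners of the same complex. Up to 3 called genes per direction are named in other lists, with MYC, MYCN, UBTF and PHGDH in any case. POLR1F, RRN3 and MXD3, which did not pass, are named besides. Marker genes were named after their values were seen. Alternatives were a replicate block, 3 other scalings, another moderation, 2 filters, other row rules, a stricter threshold and leaving out each array.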

Additional observations from a re-analysis of the deposited data

How the results depend on the processing

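Of the 18 members called lower, 16 kept the call under every alternative at the 0.05 threshold, as did 2 of the 3 called higher; WDR12, RRP7A and WDR74 did not. Calls were also gained: trend and robust moderation gave 22 lower and 4 higher, and the filters at the 25th and 50th percentile gave 20 and 21 lower and 4 higher each. RIOK1 passed under 5 alternatives, BYSL and PNO1 under 4 each, RRS1 under 2, and NLE1, NCL and FBL under 1 each. With 1 array left out, 16 to 18 members were lower and 2 to 3 higher, and the median change was -0.31 to -0.24. With arrays centred on the 75th percentile 5 members were higher and the median was -0.16, while the median of all genes tested moved from 0.06 to 0.17; with quantile normalization the members' median was -0.21. The replicate block gave 17 lower and 3 higher, losing WDR12 (adjusted p = 0.0897). Changes near 0 turned sign without passing: HEATR1 with arrays centred on the median (-0.0011), RRP12, UTP18 and NVL with the 75th percentile (0.07 each), RRP12 and NVL with quantile normalization (0.07 and 0.03), and, with 1 array left out, UTP18 (-0.09 to 0.03, above 0 without DMSO c), BOP1 (-0.0024 to 0.23, below 0 without NCT-503 b) and RRP12 (-0.14 to 0.05, above 0 without NCT-503 c). Counts of the other lists moved too. Other small subunit factors had 6 rises with 75th percentile centring or quantile normalization, and 7 falls with trend and robust moderation or either filter. Falls among other snoRNP and nucleolar proteins dropped to 2 with the replicate block or 75th percentile centring. Other large subunit factors had 8 to 14 rises and 4 to 5 falls at the 0.05 threshold. At an adjusted p under 0.01, 15 members were lower and 2 higher, and 1682 and 1226 of all genes tested. The causes were not tested. Signal over background was not used here, so what dimness limits is unknown.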

Other observations

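The E-box hexamer just after the gene start was found in the rest of the pathway too. Of 52 measured genes of the 3 further factor lists that had a promoter window, 16 (30.8%) held it, and in 9 (17.3%) a copy lay after the start, against 1.27% of all genes tested with a window. Of those 9 genes 3 fell and none rose with NCT-503. Of the 16 members without a named row, all with a window, 6 held the hexamer and 4 had a copy after the start.

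Over all genes tested, the hexamer went with little difference in calls. Of 1185 genes with it 19.9% fell and 17.0% rose, and of 9530 genes without it 17.6% fell and 17.9% rose, with a median change of 0.06 in both. Of the 136 genes with a copy after the start, 18.4% fell and 12.5% rose. These are descriptions across genes, which are not independent replicates, and no test was made.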
